A study of Homo sapiens with 6 samples.

Results

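The 28 genes described here encode proteins of the small ribosomal subunit and were taken from a list of named members, RPSA, 26 genes named RPS and FAU. They were chosen by name, without a cut on a measured value, but with earlier results of these data known. Each gene's level is the sum of RPKM (reads per kilobase of transcript, scaled to the depth of the library) over its annotated transcripts, and coding transcripts were also set against noncoding ones. They are 28 of 26409 genes with a transcript in the table, and 255 of its 165956 transcripts belong to them. RNA was sequenced from SUM1315, an established human line from a triple-negative breast cancer, the kind that lacks the hormone receptors and HER2 amplification used to guide treatment. The hypoxia group holds 3 libraries from wild-type cells kept for 24 h in a sealed chamber at 1% oxygen. The normoxia group holds 3 libraries from wild-type cells kept at 21% oxygen, and both groups grew in a serum-containing medium with insulin and EGF. The study asked how low oxygen affects the making of ribosomes and ribosomal RNA. All libraries come from 1 cell line. Nothing in the labels tells separate cultures from repeat preparations of 1 culture, and the p-values below rest on the scatter among libraries, part or all of which may be technical.

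The small subunit of the ribosome binds the messenger RNA and checks each codon against its transfer RNA. Its proteins are made in equal numbers from unlinked genes, are carried into the nucleolus and are built onto the 18S ribosomal RNA by a large set of assembly factors. Their messenger RNAs begin with a run of pyrimidines, the 5′ terminal oligopyrimidine (TOP) tract, through which mTORC1 signalling and the RNA-binding protein LARP1 govern how much of them is translated and how long they are kept. Hypoxia is known to lower mTORC1 activity through DDIT4, and translation of TOP messenger RNAs with it. The present values are RNA levels and say nothing of translation.

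The start windows below show the tract in members whose RNA was raised in hypoxia (the first 6) and in members whose RNA was not called (the last 4). Each window runs from 12 bases before to 11 bases after the RefSeq start of the gene on the gene's own strand (GRCh38.p14), and capitals mark a run of at least 5 pyrimidines that begins with C within 10 bases of that start.
RPS18, chr6:33272063-33272086, plus strand: gtcacttccgCTCTCTCTTCCaca
RPS28, chr19:8321484-8321507, plus strand: ccgaagcacgtgaCTCCTCTCCgc
RPS14, chr5:150449728-150449751, minus strand: ccccctcccaCTCTCTCTTTCCgg
RPS3, chr11:75399506-75399529, plus strand: cgcgagccaCTTCCTTTCCTTTCa
RPS23, chr5:82278343-82278366, minus strand: tgcggtgCTTCTCTCTTTCgctca
RPS6, chr9:19380225-19380248, minus strand: cggaagttggCCCTCTTTTCCgtg
RPSA, chr3:39406708-39406731, plus strand: cctgccgcctgtCTTTTCCgtgct
RPS24, chr10:78033851-78033874, plus strand: cgaatcgtggttCTCTTTTCCTCC
RPS7, chr2:3575248-3575271, plus strand: tccgCCCTCCTCCTCgcgctgttt
FAU, chr11:65122123-65122146, minus strand: cctcgCTTCTTCCTCTTTCTCgac
Such a run stood near the start of 23 of the 25 members with a promoter in the RefSeq table (92.0%), against 33.5% of 35116 promoters. It was present in 10 of 12 raised members and in 13 of 13 members that were not called. The 2 without it, RPS4X and RPS29, were both raised. The RefSeq start is not the annotated start of the transcript that carries most of the RNA for a number of members. It lies upstream of that start for RPS19, RPS27A and RPS29 and downstream of it for RPS9, RPS12, RPS13, RPS18, RPS25 and FAU, among others, so the windows and these counts describe the RefSeq start and not that transcript's. The core letters of hypoxia response elements, ACGTG or GCGTG on either strand from 250 bases before to 50 after the start, were in 9 of 12 raised members and 11 of 13 members not called, and in 48.4% of all promoters. A match of letters is not a binding site.

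Sequencing depth recovered from the smallest steps of the values was 44.0 to 50.7 M reads in the hypoxic and 50.4 to 50.9 M reads in the normoxic libraries. For the 11884 genes tested, those above 1 RPKM in 3 or more libraries, the median log2 fold change, hypoxia over normoxia, was -0.08. The hypoxia markers responded: VEGFA, the angiogenic growth factor, averaged 22.2 ± 2.26 RPKM in hypoxia and 10.1 ± 0.428 RPKM in normoxia (SD, n = 3 each), and SLC2A1, the glucose transporter GLUT1, averaged 46.9 ± 6.56 RPKM in hypoxia and 5.49 ± 0.220 RPKM in normoxia. For the cell type, the mesenchymal marker VIM (vimentin) stood at 6307 to 7439 RPKM in hypoxia and 4741 to 4901 RPKM in normoxia, ZEB1 at 6.16 to 7.79 RPKM in hypoxia and 7.51 to 8.50 RPKM in normoxia, and CDH2, FN1 and SPARC were at or below 3.41 RPKM in all libraries. The epithelial markers EPCAM, KRT8, KRT18, KRT19, KRT5, KRT14 and KRT17 were at or below 0.110 RPKM and the oestrogen receptor gene ESR1 at or below 0.209 RPKM. ERBB2, the gene of HER2, was present at 20.2 to 23.7 RPKM in hypoxia and 21.2 to 21.8 RPKM in normoxia. Other epithelial markers were present: the luminal GATA3 at 3.21 to 4.72 RPKM in hypoxia and 4.68 to 5.08 RPKM in normoxia, FOXA1 at 0.623 to 0.793 RPKM in hypoxia and 0.800 to 1.18 RPKM in normoxia, and the basal EGFR at 12.4 RPKM or less in the hypoxic and 12.7 RPKM or more in the normoxic libraries. Of the leukocyte and endothelial genes, PTPRC, PECAM1 and VWF were at or below 0.0954 RPKM, whereas CD68 stood at 73.5 to 80.7 RPKM in hypoxia and 45.8 to 48.3 RPKM in normoxia. RPKM is a share of each library, so a change in total RNA per cell, or in the number of cells, cannot be told apart from these values.

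In hypoxia 13 of the 28 members were raised and 0 lowered (limma, Benjamini-Hochberg adjusted p under 0.05 over all genes tested), against 12.4% of all genes raised and 24.4% lowered. At an unadjusted p under 0.05, 17 members were higher and 0 lower, as were 1880 and 3885 of all 11884 genes. The median log2 fold change of the members was 0.18, against -0.08 over all genes. All 28 passed the filter on low values. These counts depend on the scaling: after median-of-ratios scaling 19 members were raised, with 2027 genes raised and 1422 lowered in all, where the deposited RPKM give 1478 raised and 2901 lowered. With libraries set to equal sums 11 members were raised, with 1176 genes raised and 4219 lowered, and with no filter on low values 2 members were raised (RPS15A and RPS4X). One of the 13, RPS27, needs to be set apart. Its only coding transcript in GENCODE 29, RPS27-201, is not in the table as matched, so its sum of 15.4, 17.2 and 17.3 RPKM in hypoxia and 12.7, 14.2 and 12.7 RPKM in normoxia holds retained-intron and decay transcripts and is not the level of its messenger RNA. Of the other 27 members, 12 were raised, and the fold change was above 0 for 25.

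The rise showed in the summed level of the members. They added up to 31480, 35126 and 33360 RPKM in hypoxia, against 28341, 29233 and 30098 RPKM in normoxia. As a share of the RPKM of all transcripts matched to the annotation this was 6.29%, 6.67% and 6.38% in hypoxia and 5.79%, 5.94% and 6.07% in normoxia. The groups did not overlap on either scale, and the means differed by a factor of 1.14 in RPKM and 1.09 as a share. For single members, 14 of 28 were higher in every hypoxic than in every normoxic library (16.4% of all genes were) and 0 were lower (35.6% of all genes).

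The hypoxic libraries were not alike. Hypoxia replicate 2 was the highest of its group for 23 of the 28 members and replicate 1 the lowest for 20. Normoxia replicate 1 was the lowest of its group for 26 and normoxia replicate 3 the highest for 20. The RPKM of all transcripts summed per library ran in the same order. In replicates 1, 2 and 3 it was 519514, 545297 and 541953 in hypoxia, against 507263, 510301 and 514311 in normoxia. How many of all genes follow this order was not counted, so it is not shown to be particular to the members. The number of raised members moved with the libraries used. It was 6 without hypoxia replicate 2, 7 without hypoxia replicate 3, 4 without normoxia replicate 1, 7 without normoxia replicate 2 and 6 without normoxia replicate 3, and 19 without hypoxia replicate 1. RPS14, RPS15A, RPS18 and RPS27 were raised in all 6 of these fits, and no member was lowered in any of them. Each fit has 1 library less, and the number of all genes lowered was smaller in each too, as given further below. The share of all genes raised in these fits is not given here, so the moves are not shown to be particular to the members.

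**Figure D1:**
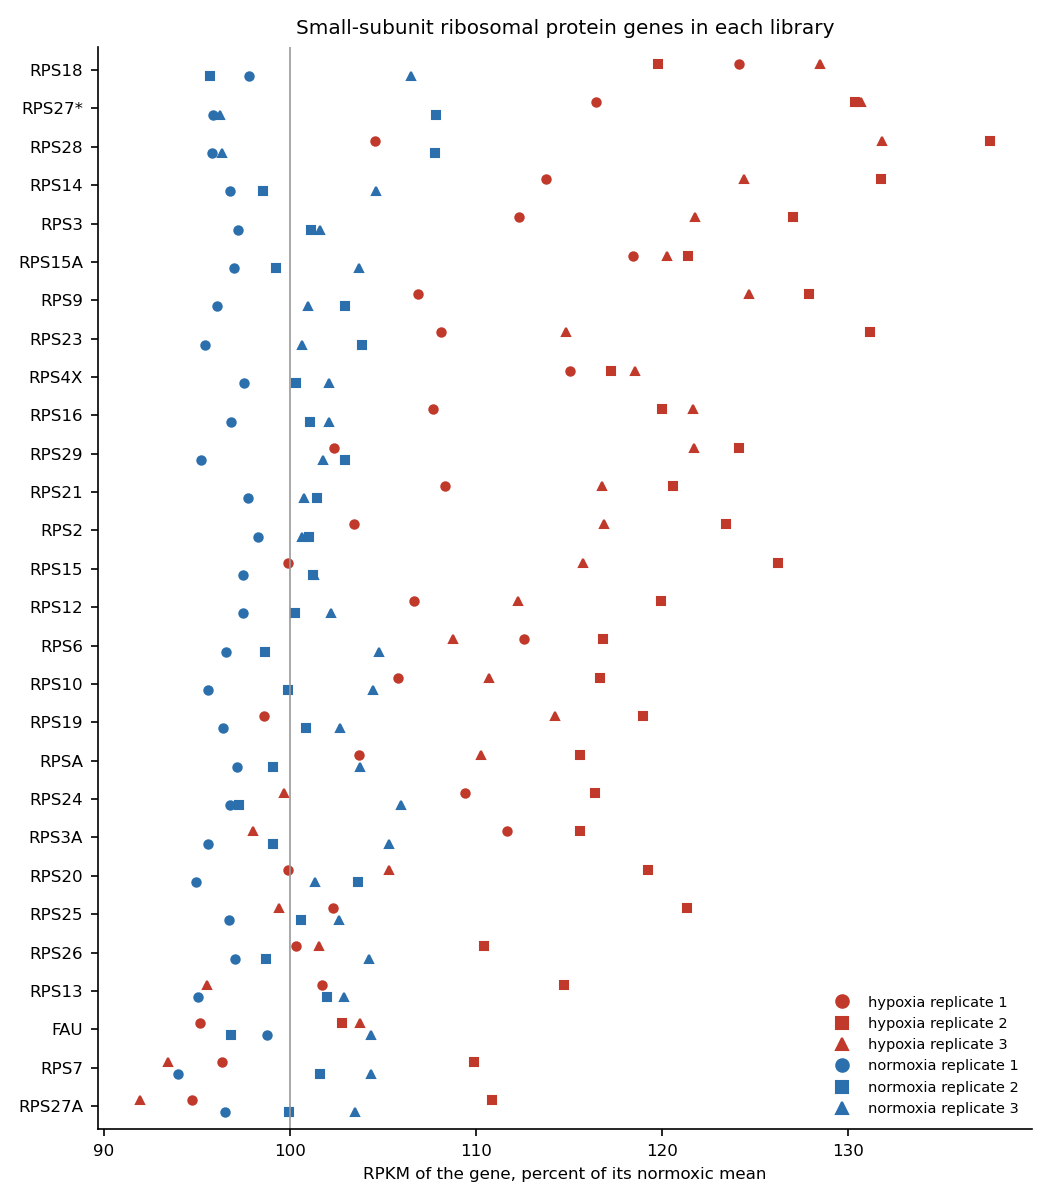
RPKM of each of the 28 genes in each library as a percentage of the gene's normoxic mean (red, hypoxia; blue, normoxia; marker shape, replicate number), ordered by log2 fold change. RPS27 (asterisk) holds noncoding and decay transcripts only. For RPS18, RPS14, RPS15A and RPS4X the 3 hypoxic points lie clear of the 3 normoxic ones, while for FAU, RPS7 and RPS27A they lie among them.

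The members of the head of the subunit include the largest rise. RPS18 (uS13), which touches the large subunit and the transfer RNAs across the top of the head (chromosome 6, 33272010 to 33276510, plus strand, GRCh38), had 4227, 4079 and 4374 RPKM in hypoxia, against 3329, 3259 and 3626 RPKM in normoxia. Every hypoxic library exceeded every normoxic one. The log2 fold change was 0.31 (SE 0.07, limma adjusted p = 0.00609). It was on average the most abundant member in hypoxia, and 99.5% of its RNA in each hypoxic library came from 1 coding transcript. The gene overlaps VPS52 on the other strand, which stood at 24.7 to 27.1 RPKM in hypoxia and 28.7 to 29.8 RPKM in normoxia.

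RPS3 (uS3) lines the channel through which messenger RNA enters and also acts as a DNA repair endonuclease (chromosome 11, 75399486 to 75422280, plus strand). It had 1628, 1841 and 1765 RPKM in hypoxia, against 1409, 1466 and 1474 RPKM in normoxia, with no overlap between the groups. The log2 fold change was 0.27 (SE 0.07, limma adjusted p = 0.00997). RPS28 (eS28), a small protein at the messenger RNA exit (chromosome 19, 8321158 to 8323340, plus strand), was the least abundant member apart from RPS27. Its 135, 177 and 170 RPKM in hypoxia and 123, 139 and 124 RPKM in normoxia overlapped, since hypoxia replicate 1 lay below normoxia replicate 2. The log2 fold change was 0.31 (SE 0.09, limma adjusted p = 0.0263).

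Of the other head proteins, RPS16 (uS9), whose tail reaches the transfer RNA in the P site, and RPS29 (uS14) were raised too. RPS16 averaged 1539 ± 101 RPKM in hypoxia and 1321 ± 36.7 RPKM in normoxia (SD, n = 3 each). RPS29 averaged 331 ± 34.0 RPKM in hypoxia and 285 ± 11.9 RPKM in normoxia, and it lay just inside the threshold with a limma adjusted p of 0.0496. With the length trend removed its log2 fold change turned to -0.032. RN7SL1, on the other strand (chromosome 14, 49586580 to 49586878), lies within the bounds of the RPS29 gene. It lies outside the main transcript RPS29-201 (49583572 to 49586376), which held 95.5% to 97.2% of the gene's RPKM. RN7SL1 stood at 23.2 to 29.1 RPKM in hypoxia and 7.21 to 11.9 RPKM in normoxia, and its part in the RPS29 result was not tested. RPS12, RPS15, RPS10, RPS19 and RPS20 had log2 fold changes between 0.11 and 0.18 that did not pass. Just outside the threshold was RPS12, the beak protein, with a limma adjusted p of 0.0524 and no overlap between groups. RPS25 (eS25), a head protein needed for initiation at several viral internal entry sites, had 1077, 1278 and 1047 RPKM in hypoxia, against 1018, 1060 and 1081 RPKM in normoxia. Hypoxia replicate 2 alone stood above the normoxic libraries, and the log2 fold change was 0.10 (95% interval -0.07 to 0.27, limma adjusted p = 0.321). TRAPPC4, which overlaps it on the other strand, stood at 93.8 to 102 RPKM in hypoxia and 101 to 106 RPKM in normoxia.

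In the body and platform, RPS14 and RPS15A were raised. RPS14 (uS11), a platform protein whose loss causes the anaemia of the 5q- syndrome (chromosome 5, 150442635 to 150449756, minus strand), had 704, 815 and 770 RPKM in hypoxia, against 599, 610 and 648 RPKM in normoxia. The groups did not overlap and the log2 fold change was 0.30 (SE 0.07, limma adjusted p = 0.00647). RPS15A (uS8), which binds the central domain of 18S ribosomal RNA (chromosome 16, 18781295 to 18790383, minus strand), had 1101, 1129 and 1119 RPKM in hypoxia, against 902, 923 and 965 RPKM in normoxia. The groups did not overlap, and the log2 fold change was 0.26 (SE 0.06, limma adjusted p = 0.00543).

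RPS23 (uS12), part of the decoding centre and the target of a prolyl hydroxylation (chromosome 5, 82273358 to 82278577, minus strand), had 1003, 1217 and 1065 RPKM in hypoxia, against 886, 964 and 934 RPKM in normoxia. The groups were separate, with hypoxia replicate 2 the highest, and the log2 fold change was 0.24 (SE 0.08, limma adjusted p = 0.0325). RPS6 (eS6), the member that S6 kinases phosphorylate below mTORC1 (chromosome 9, 19375715 to 19380254, minus strand), had 773, 802 and 747 RPKM in hypoxia, against 663, 677 and 719 RPKM in normoxia. The groups did not overlap, and the log2 fold change of 0.17 (SE 0.06, limma adjusted p = 0.0412) was the smallest among the raised members. RPS9 (uS4) and RPS4X (eS4), both bound early to the 18S ribosomal RNA, and RPS21 (eS21) were raised as well, with log2 fold changes of 0.26, 0.23 and 0.20. That of RPS21 turned to -0.026 with the length trend removed.

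Other body members were not called. RPSA (uS2), which doubles as the laminin receptor precursor (chromosome 3, 39406689 to 39412542, plus strand), had 1394, 1553 and 1481 RPKM in hypoxia, against 1305, 1331 and 1394 RPKM in normoxia. Hypoxia replicate 1 and normoxia replicate 3 were equal to the digits shown, and the log2 fold change was 0.13 (95% interval -0.01 to 0.27, limma adjusted p = 0.116). RPS24 (eS24), a body protein whose gene is spliced in more than 1 way (chromosome 10, 78033732 to 78056813, plus strand), had 1061, 1129 and 967 RPKM in hypoxia, against 939, 943 and 1028 RPKM in normoxia. The groups overlapped through hypoxia replicate 3 and normoxia replicate 3 (log2 fold change 0.12, 95% interval -0.04 to 0.27, limma adjusted p = 0.214).

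RPS26 (eS26), at the messenger RNA exit channel (chromosome 12, 56041351 to 56044697, plus strand), had 586, 645 and 594 RPKM in hypoxia, against 567, 577 and 609 RPKM in normoxia. The values overlapped (log2 fold change 0.06, 95% interval -0.08 to 0.19, limma adjusted p = 0.478). RPS13 (uS15), which forms a bridge to the large subunit (chromosome 11, 17074389 to 17077787, minus strand), had 379, 428 and 356 RPKM in hypoxia, against 355, 381 and 384 RPKM in normoxia. RPS7 (eS7), which also binds MDM2 (chromosome 2, 3575205 to 3580920, plus strand), had 414, 472 and 401 RPKM in hypoxia, against 404, 436 and 448 RPKM in normoxia. For both, hypoxia replicate 2 was the highest of all 6 libraries and hypoxia replicate 3 lay below 2 normoxic libraries for RPS13 and below all 3 for RPS7. Their limma adjusted p-values were 0.586 and 0.971.

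The 2 members made as fusions to a ubiquitin-like protein were at the bottom of the order with RPS7. RPS27A encodes ubiquitin joined to eS31 (chromosome 2, 55231903 to 55235853, plus strand). It had 579, 677 and 562 RPKM in hypoxia, against 589, 610 and 632 RPKM in normoxia, and hypoxia replicates 1 and 3 were the lowest of the 6. FAU encodes the ubiquitin-like FUBI joined to eS30 (chromosome 11, 65120628 to 65122473, minus strand). It had 779, 842 and 850 RPKM in hypoxia, against 809, 793 and 854 RPKM in normoxia. The log2 fold changes were -0.02 (95% interval -0.18 to 0.15) for RPS27A and 0.01 (95% interval -0.13 to 0.14) for FAU, with limma adjusted p-values of 0.880 and 0.926. FAU overlaps MRPL49 on the other strand and SYVN1 on its own, MRPL49 at 39.3 to 43.2 RPKM in hypoxia and 45.1 to 48.4 RPKM in normoxia, and SYVN1 at 12.2 to 14.3 RPKM in hypoxia and 12.1 to 13.5 RPKM in normoxia.

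The remaining members, RPS2 and RPS3A, were not called. RPS2 (uS5), at the messenger RNA entry, was the second most abundant member in hypoxia, with 4124 ± 367 RPKM, and stood at 3599 ± 53.8 RPKM in normoxia (SD, n = 3 each). The groups did not overlap, but the limma adjusted p was 0.0669. Pseudogenes of RPS2 summed to 11.7% of its RPKM, more than for any other member whose messenger RNA was measured, so reads may be shared between these copies. RPS3A (eS1) averaged 720 ± 61.3 RPKM in hypoxia and 664 ± 32.7 RPKM in normoxia.

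The members were also split by place, origin and disease. For comparison, 13 of all 28 members and 12.4% of all genes tested were raised. Of the 12 head proteins 5 were raised, with a median log2 fold change of 0.18, and of the 16 body proteins 8 were raised, also with a median of 0.18. Of 13 members with a bacterial counterpart 8 were raised (median 0.22), and of 15 without one 5 were raised (median 0.14). Of 9 members known to be mutated in Diamond-Blackfan anaemia, a failure of red cell production, 4 were raised (RPS15A, RPS27, RPS28 and RPS29), with a median of 0.15. RPS27, whose sum is not the level of its messenger RNA, is counted as raised in 3 of these groups and enters their medians. They are the body proteins, the members without a bacterial counterpart and the anaemia genes. These splits were not tested against each other.

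Protein-coding transcripts held 97.1%, 97.0% and 96.9% of the members' RPKM in hypoxia and 97.0%, 97.0% and 97.2% in normoxia. Noncoding transcripts, those with a retained intron or no reading frame, held 1.56%, 1.46% and 1.53% in hypoxia, against 1.71%, 1.60% and 1.57% in normoxia. Transcripts marked for nonsense-mediated decay (NMD), the quality control that destroys RNA with an early stop, held 1.33%, 1.54% and 1.54% in hypoxia, against 1.33%, 1.39% and 1.26% in normoxia. The noncoding share was lower in each hypoxic library, while the shares of the other classes overlapped between groups.

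Summed over the members, coding RPKM averaged 32325 in hypoxia and 28362 in normoxia, a factor of 1.14. Noncoding RPKM averaged 506 in hypoxia and 475 in normoxia (factor 1.06), and NMD RPKM 491 and 387 (factor 1.27). Each of these sums was higher in every hypoxic than in every normoxic library. Coding transcripts hold most of this RNA, so a fit of them alone had to give nearly the same calls as the gene sums. With coding transcripts alone, 12 of 27 members were raised and 0 lowered (limma, against 11.6% and 27.1% of all genes), the same 12 genes as with all transcripts summed, and the median log2 fold change was 0.17. Of the noncoding sums of 20 members, 0 were called (limma; 1.88% of all such genes were raised and 0.154% lowered), and the median was -0.03. At an unadjusted p under 0.05, 2 of these were higher and 1 lower, beside 282 and 184 of all 3240 such genes. As many were higher (2) and lower (1) in every hypoxic library, where 11.1% and 9.6% of all such genes were. Of the NMD sums of 6 members 0 were called either (limma; 0.784% of all raised, 0.168% lowered), with a median of 0.29 and 4 higher and 0 lower at an unadjusted p under 0.05, beside 107 and 196 of all 1785 such genes. In every hypoxic library 4 of these 6 were higher (8.35% of all such genes) and 0 lower (16.1%). Levels of these classes are far lower than those of the coding sums.

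The ratio of noncoding to coding RNA within a gene could be tested for 19 members. None passed (limma, 0 raised and 0 lowered; 0.0322% of 3101 genes were raised and 0% lowered), and the lowest adjusted p was 0.458. The ratio was lower in hypoxia for 15 of the 19, with a median log2 change of -0.20, against 0.05 over all genes tested. Leaving out 1 library at a time gave medians from -0.32 to -0.10, the lowest without normoxia replicate 3 and the highest without hypoxia replicate 2. At an unadjusted p under 0.05, 2 members were lower (RPS25 and RPS18) and 0 higher, while 79 of all 3101 genes were lower and 162 higher. RPS25 had 0.547%, 0.428% and 0.443% of its coding and noncoding RPKM in noncoding transcripts in hypoxia, against 0.761%, 0.650% and 0.642% in normoxia, with no overlap. Its log2 change was -0.48 (95% interval -0.83 to -0.13), and the intervals of most members span 0.

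**Figure D2:**
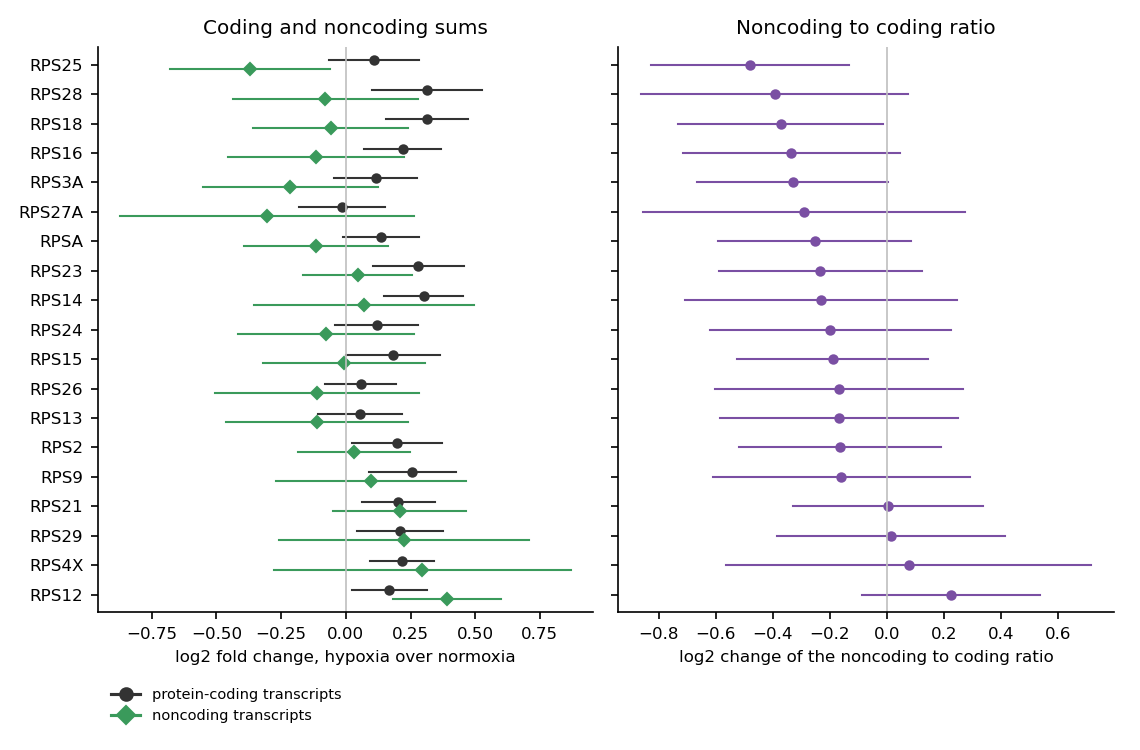
Left, log2 fold change of the coding sum (circles) and the noncoding sum (diamonds) of 19 members, hypoxia over normoxia, on the log2(RPKM + 1) scale. Right, log2 change of the noncoding to coding ratio. Lines are 95% intervals from limma. In the right panel 15 points lie left of 0, from -0.48 for RPS25, and the highest is 0.22 for RPS12.

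Among members with a coding transcript in the table, the largest noncoding share belonged to RPS23, whose retained-intron transcript RPS23-203 had 187, 212 and 176 RPKM in hypoxia, against 173, 181 and 195 RPKM in normoxia. These values overlapped (log2 fold change 0.06, limma adjusted p = 0.671). The coding transcript RPS23-208 held 78.3%, 80.0% and 80.7% of the gene in hypoxia, against 76.7%, 78.2% and 75.3% in normoxia. RPS23-203 held 18.6%, 17.4% and 16.5% in hypoxia, against 19.5%, 18.8% and 20.9% in normoxia, a lower share in each hypoxic library. RPS3 carried the most NMD RNA. Its main NMD transcript had 313, 425 and 402 RPKM in hypoxia, against 288, 306 and 279 RPKM in normoxia. It was higher in each hypoxic library, but the log2 fold change of 0.37 did not pass (limma adjusted p = 0.0869), and its share of the gene overlapped between groups.

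Across the 138 member transcripts tested, 7 were raised and 3 lowered (limma adjusted p under 0.05 over 26784 transcripts; 3.5% of all were raised and 3.22% lowered). In all, 34 member transcripts were higher in every hypoxic library (11.6% of all) and 13 were lower (22.5% of all). These counts moved when 1 library was left out, and the share of all transcripts called in those fits is not given here. The raised numbered 13 without hypoxia replicate 1 and 2 without hypoxia replicate 3. They numbered 1 without normoxia replicate 1, 0 without normoxia replicate 2 and 1 without normoxia replicate 3. The lowered numbered 5 without hypoxia replicate 2, and 1 without normoxia replicate 1, 2 or 3. Of the 7 raised transcripts, 6 are coding: RPS14-207, RPS14-203 and the main transcripts of RPS18, RPS15A, RPS3 and RPS4X. For RPS18, RPS15A and RPS4X the raised transcript holds over 90% of the gene's RNA, so it repeats the gene's own change.

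The exception among the raised was RPS12-202, which is annotated as a retained-intron transcript. Like the coding RPS12-201 (631 bases), this transcript has 6 exons, over 639 bases. It had 44.6, 47.0 and 46.7 RPKM in hypoxia, against 33.5, 35.8 and 35.4 RPKM in normoxia, without overlap. The log2 fold change was 0.39 (SE 0.06, limma adjusted p = 0.0129), while the coding transcript RPS12-201 changed by 0.17 (limma adjusted p = 0.129). RPS12 holds the snoRNA genes SNORD101, SNORD100 and SNORA33 within its bounds. Of the 28 members, 7 hold 14 snoRNA genes on their own strand. Of these 7, 1 was raised (RPS3), where 12.4% of all genes were. The ratio of noncoding to coding RPS12 did not pass its own test (log2 change 0.22, limma adjusted p = 0.754).

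Within RPS14, transcripts that encode the same protein differed in their change, and RPS14-207 had the largest log2 fold change of the 7 raised. RPS14-207, which starts 826 bases downstream of the RefSeq start, had 166, 272 and 229 RPKM in hypoxia, against 103, 93.2 and 135 RPKM in normoxia. All hypoxic values were above all normoxic ones, though hypoxia replicate 1 was much lower than replicate 2. The log2 fold change was 0.99 (SE 0.20, limma adjusted p = 0.0304). RPS14-201 had 221, 255 and 226 RPKM in hypoxia, against 245, 267 and 247 RPKM in normoxia, a log2 fold change of -0.11 (limma adjusted p = 0.347). Thus RPS14-207 held 23.6%, 33.4% and 29.8% of the gene in hypoxia, against 17.2%, 15.3% and 20.9% in normoxia. RPS14-201 held 31.4%, 31.3% and 29.3% in hypoxia, against 41.0%, 43.8% and 38.1% in normoxia. The 453 coding bases are common to both transcripts, and they differ before the coding sequence, where 83 bases are annotated for RPS14-207 and 208 for RPS14-201.

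The 3 lowered transcripts are also coding and lie in genes whose total was not lowered. RPS27A-203 had 151, 161 and 132 RPKM in hypoxia, against 181, 196 and 211 RPKM in normoxia (log2 fold change -0.41, SE 0.09, limma adjusted p = 0.0414). The main transcript RPS27A-201 had 422, 510 and 425 RPKM in hypoxia, against 401, 411 and 416 RPKM in normoxia, and its share of the gene was 73.0%, 75.4% and 75.7% in hypoxia, against 68.1%, 67.3% and 65.9% in normoxia. The sum of RPS27A therefore holds 1 transcript that fell and 1 that was higher in each hypoxic library without passing (limma adjusted p = 0.307). Both have the same 468 coding bases. RPS10-206 fell to 56.1, 56.6 and 52.1 RPKM in hypoxia, against 77.4, 75.7 and 82.0 RPKM in normoxia, and RPS15A-205 averaged 19.8 ± 0.252 RPKM in hypoxia and 27.1 ± 1.22 RPKM in normoxia (SD, n = 3 each). In both the groups were separate (log2 fold changes -0.50 and -0.43, limma adjusted p = 0.00579 and 0.0124). Each is a minor form with a longer stretch before the coding sequence than its main transcript: 231 against 38 bases for RPS10, and 369 against 79 bases for RPS15A.

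RPS24 is the member with 2 major protein forms. RPS24-202 contains a 22-base exon (chr10:78040204-78040225, plus strand, GRCh38) that RPS24-214 skips. The exon is shown because its first letters, in capitals, are the stop codon of RPS24-202.
RPS24-202 exon: TGAgctggagattggatcacag
Where the exon is skipped, the coding sequence runs on for 9 bases at 78040615 to 78040623, so it has 399 coding bases before the stop in place of 390. RPS24-202 had 602, 590 and 562 RPKM in hypoxia, against 476, 467 and 540 RPKM in normoxia, higher in each hypoxic library (log2 fold change 0.24, limma adjusted p = 0.0762). RPS24-214 had 442, 523 and 390 RPKM in hypoxia, against 443, 461 and 471 RPKM in normoxia (log2 fold change -0.03, limma adjusted p = 0.877). The share of RPS24-202 was 56.7%, 52.2% and 58.2% in hypoxia and 50.7%, 49.5% and 52.6% in normoxia. The shares overlapped, since hypoxia replicate 2 lay below normoxia replicate 3. The transcripts also begin at different positions, so the exon is not their sole difference.

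Shares of all member transcripts were compared without a test. Of 138 member transcripts, 18 had a higher share of their gene in every hypoxic library (6.65% of 22367 transcripts of genes with 2 or more tested) and 30 a lower one (7.42%). By class, 15 of 91 coding, 2 of 29 retained-intron, 0 of 8 processed and 1 of 10 NMD transcripts had a higher share, and 24, 5, 1 and 0 a lower one. The shares over all genes were not split by class, so no difference between classes can be read from these counts. Shares within a gene are tied to each other, so these counts are not independent. Within FAU the full-length form FAU-207, with 399 coding bases, held 89.3%, 89.9% and 88.3% in hypoxia, against 85.7%, 85.6% and 87.2% in normoxia. FAU-202, with 225 coding bases, held 10.1%, 9.68% and 11.5% in hypoxia, against 13.8%, 13.7% and 12.2% in normoxia. Within RPS19, mutated most often in Diamond-Blackfan anaemia, RPS19-201 with 213 coding bases held 11.2%, 11.1% and 11.8% in hypoxia, against 10.8%, 7.63% and 8.07% in normoxia, and its log2 fold change of 0.51 did not pass (limma adjusted p = 0.0522).

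**Figure D3:**
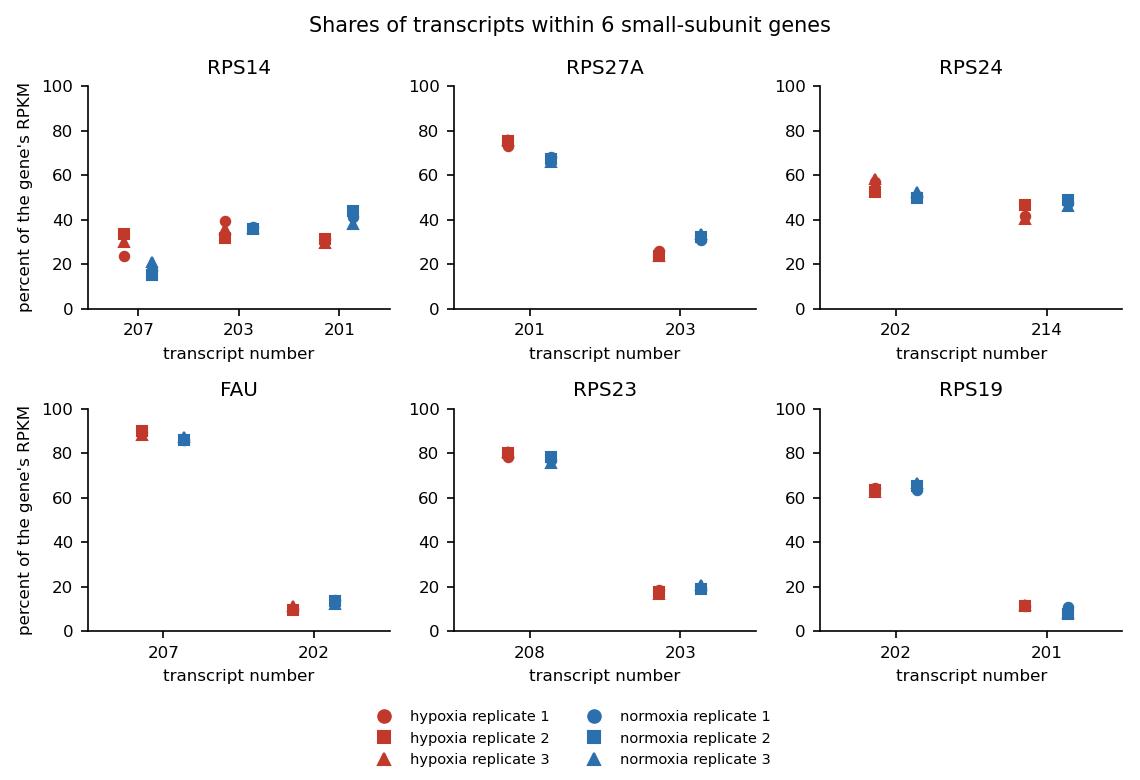
Share of the gene's RPKM held by named transcripts of RPS14, RPS27A, RPS24, FAU, RPS23 and RPS19 in each library (red, hypoxia; blue, normoxia; marker shape, replicate number). The groups are separate for RPS14-207 and RPS14-201 and for both RPS27A transcripts, and they overlap for RPS24.

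Length and base composition move with the fold changes and are given beside them. Among the 27 members with a coding transcript, the main transcripts are short, 296 to 1526 bases, where the typical length over all tested genes was 2369 bases. Over all 11884 genes the log2 fold change fell with length (Spearman rho -0.23) and rose with GC content (rho 0.42). Across the 27 members these values were -0.19 and 0.30, which is a description chosen after the values were seen, over genes measured in the same libraries. With the length trend removed within each library, 6 members were raised (RPS3, RPS4X, RPS9, RPS14, RPS18 and RPS28) and the median was 0.045, against -0.08 over all genes. With the GC trend removed 14 members were raised and the median was 0.18. The number of all genes raised in these fits is not given here, and the part of length in the result was not tested further.

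Genes for proteins of the large subunit were raised too. Of 47 genes 24 were raised and 0 lowered, where 12.4% and 24.4% of all genes were. Their median was 0.19, and 45 had a fold change above 0. The largest were RPL13A and RPL13, with log2 fold changes of 0.44 and 0.38. The summed RPKM of the small-subunit members divided by that of the large-subunit proteins was 0.550, 0.550 and 0.547 in hypoxia, against 0.559, 0.555 and 0.557 in normoxia. The ratio was lower in each hypoxic library, by a factor of 0.986 between the means. The small-subunit paralog RPS27L, a p53-induced relative of RPS27, fell to 10.1, 11.0 and 8.21 RPKM in hypoxia, against 11.2, 13.5 and 13.8 RPKM in normoxia (log2 fold change -0.36, SE 0.11, limma adjusted p = 0.0230). The groups did not overlap, and no other paralog passed the filter on low values.

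Most factors that build the small subunit were lowered. Of 61 assembly factors 51 were lowered and 1 was raised, with a median of -0.40, where 24.4% of all genes were lowered and 12.4% raised. PNO1, a late 40S factor, had 7.74, 7.54 and 7.30 RPKM in hypoxia, against 14.3, 14.4 and 13.3 RPKM in normoxia, with no overlap. The raised one was RIOK3, a kinase bound to pre-40S particles, with 8.11 ± 0.423 RPKM in hypoxia and 5.85 ± 0.518 RPKM in normoxia (SD, n = 3 each). Of 18 modifiers of small-subunit proteins 10 were lowered, 0 raised and 8 not called, with a median of -0.19. PRMT3, which methylates RPS2, averaged 12.2 ± 1.06 RPKM in hypoxia and 21.1 ± 0.901 RPKM in normoxia. OGFOD1, the oxygen-dependent hydroxylase of RPS23, averaged 31.9 ± 2.13 RPKM in hypoxia and 42.9 ± 0.264 RPKM in normoxia, while RPS23 itself was raised.

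Among 17 regulators of TOP messenger RNAs 3 were raised and 7 lowered, where 12.4% and 24.4% of all genes were. DDIT4, the hypoxia-induced inhibitor of mTORC1, rose by a log2 fold change of 3.02, and EIF4EBP1, a repressor of cap-dependent translation, by 0.44. MTOR itself had a log2 fold change of -0.50 and LARP4, which binds poly(A) tails, one of -0.45, both lowered. Among 24 factors of the 43S complex, in which the small subunit finds the start codon, 4 were raised and 8 lowered, shares near those of all genes. The raised included EIF3D and EIF1, each at 0.23, and the lowered ABCE1, which recycles ribosomes, at -0.50, and EIF5B, which joins the subunits, at -0.46. These lists were chosen with earlier results of these data known and were not tested as sets.

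**Figure D4:**
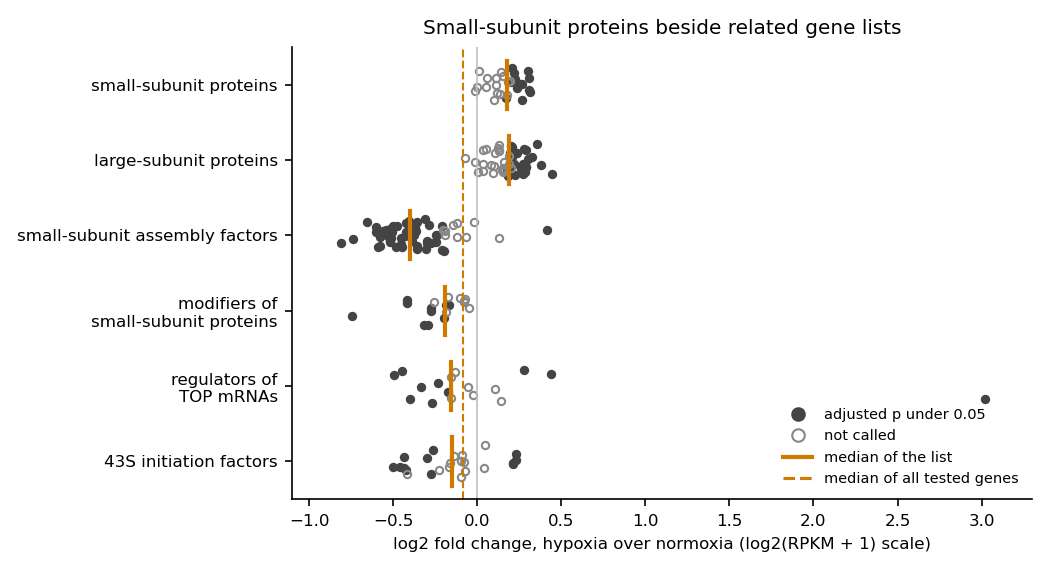
Log2 fold change, hypoxia over normoxia, of the small-subunit proteins and 5 related gene lists (filled, limma adjusted p under 0.05; open, not called; solid bar, median of the list; dashed line, median of all tested genes). Most proteins of both subunits lie right of 0, with medians of 0.18 and 0.19 (RPS7, RPS27A and 2 of 47 large-subunit genes do not), and the assembly factors lie mostly left of it, with a median of -0.40.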

How the data were processed

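The authors deposited 1 table of RPKM values for 165956 Ensembl transcripts in 6 columns. The unit is not written in it and was inferred from the values, 79.5% to 80.8% of low values lying within 0.1 of a whole multiple of 1 read. The submitters' processing notes name GRCh38 and hg38 as builds and list Partek, SAMtools, HISAT2 and Trimmomatic as tools, without versions. The annotation release is not given in the sources used here. Per the labels' protocols, the library kit was NEBNext Ultra, and overlapping genes on opposite strands cannot be separated with certainty. Reads were divided among overlapping transcripts for most rows, so no counting interval is given.

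Transcripts were joined by identifier to GENCODE 29 (140004, 84.4%, matched), and RPKM was summed per gene. Unmatched transcripts, with 3.44% to 3.68% of RPKM, were left out. Of 266 annotated member transcripts, 11 are not in the table. Genes, transcript classes and transcripts above 1 RPKM in at least 3 libraries were tested with limma 3.58.1 (R 4.3.3) on log2(RPKM + 1), its variance prior following the mean level, without a block, adjusted by Benjamini-Hochberg over all features tested. Fold changes on this scale understate those of low genes. For the ratio, a variance trend on the level of the rarer class was added after seeing the data. A test of single transcripts against the rest of their gene was tried after seeing the data and dropped, because it recovered almost no change in simulated data. The other fits were tested on simulated data.

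Values per library are given for the 6 largest and 6 smallest fold changes and 8 members chosen by name. Members, lists and this rule were chosen with earlier results of these data known. Promoter sequences are from RefSeq (25 of 28 members matched). No protein sequences were used. Replicates differed by more than counting noise, with a mean chi-square per gene of at least 6.69. Alternatives were other scalings, filters, a pseudocount of 0.1, the replicate block, length and GC trends, limma-voom and leaving out each library. Python 3.11.15, numpy 2.4.6, pandas 2.3.3, scipy 1.17.1 and matplotlib 3.10.9 were used.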

Additional observations from a re-analysis of the deposited data

How the results depend on the processing

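The number of members called moved with the processing, while 0 members were lowered under any alternative run (limma, and limma-voom with 14 raised). Members raised numbered 20 under upper-quartile scaling, 2 without a filter on low values and 6 with the length trend removed, against 13 as reported, and 4 to 19 when 1 library was left out. The median log2 fold change of members was 0.26 under median-of-ratios and 0.26 under upper-quartile scaling, 0.11 when libraries had equal sums and 0.045 once the length trend was taken out. All genes lowered numbered 1422 under median-of-ratios scaling, 1466 under upper-quartile scaling and 1367 without a filter, and 1523 to 2866 with 1 library left out. Member transcripts raised numbered 15 under median-of-ratios scaling, and those lowered 5 with a filter of 5 RPKM. With 1 library left out 0 to 13 were raised and 1 to 5 lowered.

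Some fold changes changed sign, those of the raised members RPS21 and RPS29 (0.20 and 0.21 as reported) among them. With median-of-ratios scaling RPS7 was at 0.082 and RPS27A at 0.069, and with upper-quartile scaling at 0.076 and 0.064. Equal sums gave -0.016 for RPS13, -0.011 for RPS26 and -0.061 for FAU. Removing the length trend gave -0.077 for RPS13, -0.025 for RPS20, -0.026 for RPS21, -0.024 for RPS24, -0.075 for RPS26, -0.032 for RPS29 and -0.094 for FAU. Removing the GC trend gave 0.032 for RPS7, 0.070 for RPS27A and -0.11 for FAU, and limma-voom 0.015 for RPS27A. With 1 library left out, RPS7 ranged from -0.074 to 0.043, RPS13 from -0.020 to 0.11, RPS27A from -0.098 to 0.036 and FAU from -0.015 to 0.047. The cause was not tested. Of 475 values of single members under the alternatives, 362 kept their direction and side of the threshold, 27 newly passed, 56 no longer passed and 30 changed sign.

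For the replicate block, deviations from the group mean correlated at 0.09, 0.03 and -0.23 between libraries of the same number. Between libraries of different numbers the correlations ran from -0.25 to 0.20. With 3 libraries in each group these few values cannot tell whether the numbers pair the samples. With the block 16 members and 2 member transcripts were raised, and 1465 genes raised and 2664 lowered. The noncoding to coding ratio gave 0 calls under each alternative run, also with the variance trend chosen after seeing the data (median -0.20). Leaving NMD transcripts out of both classes equals the reported fit.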
